A study of Mus musculus with 7 samples.

Results

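Yap1, Wwtr1 (which encodes TAZ), the 4 Tead genes and the YAP and TAZ target genes Ankrd1, Ccn1, Ccn2 and Amotl2 were examined for nearby binding of JUNB, which with a partner protein forms AP-1. Overlapping JUNB peaks of 4 libraries were joined into regions, and each region was given to the protein-coding gene with the nearest end within 100 kb. The 10 genes owned 33 of 12655 regions. The genes were named in advance of this description with earlier results of the same data known, so that their counts are a description and carry no enrichment test.

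JUNB was mapped by CUT&RUN, in which a nuclease tethered to an antibody releases the DNA around the bound protein. The cells were mouse embryonic fibroblasts of the line iMGT-Myh6-eGFP-MEF, in which doxycycline switches on Mef2c, Gata4 and Tbx5 (together MGT, regulators of heart development) and Myh6-eGFP reports cardiac fate. By their titles, 2 libraries came from cells transfected with siChst7, against a chondroitin sulfate sulfotransferase gene, and 2 from cells transfected with siControl. All cells received doxycycline and were harvested 1 day later. The siChst7 groups rest on the titles and treatment labels, since the treatment protocol speaks of siJunb, siH1f0 and siControl instead. All libraries came from this line, and the labels do not say whether the biological replicates were separate cultures, so that p-values measure the spread between libraries, which may be technical. The 3 IgG libraries of the series were not analysed here, and peak lists hold no expression, so neither the level of Chst7 nor the fibroblast identity of the cells was checked.

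YAP and TAZ are coactivators that carry no DNA-binding domain of their own and reach DNA mainly through TEAD proteins. The Hippo kinase cascade phosphorylates them and keeps them out of the nucleus, while stiff matrix, cell spreading and actin tension release them. TEAD proteins recognise the M-CAT element, GGAATG or its reverse complement CATTCC, and AP-1 recognises TGANTCA. In many cell types YAP, TAZ, TEAD and AP-1 occupy the same enhancers, and in fibroblasts the YAP programme is tied to matrix production and myofibroblast features.

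Promoter sequence was available from RefSeq (build GRCm38.p6, the assembly of mm10) for 7 of the 10 genes: Yap1, Wwtr1, Tead2, Tead3, Ankrd1, Ccn1 and Amotl2. A JUNB region called in all 4 lists lay over all 250 bases before the start of Ankrd1. At Amotl2 a region joined from peaks of 3 lists covered only the last 12 of the 250 bases. Counting any overlap, that is 2 of 7 genes, against 4.09% of all genes of the promoter table and 1 of 34 wider Hippo genes. A region in all 4 lists lay over a window of 1 of 7 genes, against 0.907%. The Ankrd1 and Amotl2 promoters are shown with that of Ccn1, a classical YAP target with no region over its promoter. The promoter of F3, a further YAP target gene that encodes tissue factor, is shown because a JUNB region covered AP-1 letters there. That region was called in siChst7 replicate 1 alone, with a fold of 5.19. Capitals mark the TEAD letters (GGAATG, or as its reverse complement CATTCC) or the AP-1 letters (TGANTCA), so that both strands were searched. No printed window holds both motifs, so they do not overlap.
Ankrd1, chr19:36119845-36120094, minus strand: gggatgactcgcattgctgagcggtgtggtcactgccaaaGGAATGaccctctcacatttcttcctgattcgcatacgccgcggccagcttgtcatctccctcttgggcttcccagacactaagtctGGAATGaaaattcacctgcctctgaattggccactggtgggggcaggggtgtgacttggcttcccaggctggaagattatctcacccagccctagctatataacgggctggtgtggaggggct
Amotl2, chr9:102717554-102717803, plus strand: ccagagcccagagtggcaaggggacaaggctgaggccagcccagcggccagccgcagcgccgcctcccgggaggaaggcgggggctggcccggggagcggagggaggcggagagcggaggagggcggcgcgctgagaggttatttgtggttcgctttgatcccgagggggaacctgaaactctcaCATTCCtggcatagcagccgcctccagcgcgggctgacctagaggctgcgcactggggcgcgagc
Ccn1, chr3:145649986-145650235, minus strand: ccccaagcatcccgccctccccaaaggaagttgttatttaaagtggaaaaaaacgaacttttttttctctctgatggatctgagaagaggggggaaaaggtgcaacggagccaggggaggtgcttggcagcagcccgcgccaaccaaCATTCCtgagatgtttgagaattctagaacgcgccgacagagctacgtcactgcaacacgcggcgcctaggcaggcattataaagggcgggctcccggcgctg
F3, chr3:121723287-121723536, plus strand: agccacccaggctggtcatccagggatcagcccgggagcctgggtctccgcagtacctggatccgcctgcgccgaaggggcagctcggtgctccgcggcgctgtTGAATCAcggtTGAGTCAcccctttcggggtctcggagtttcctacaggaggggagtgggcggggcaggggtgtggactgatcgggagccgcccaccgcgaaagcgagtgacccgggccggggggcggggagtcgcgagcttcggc

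The TEAD letters stood in the promoters of 6 of the 7 genes with sequence, all but Tead2. Over all 27025 genes of the promoter table, 14.4% held GGAATG or CATTCC in at least 1 window, and 7.82% held TGANTCA. No promoter of the 7 genes held TGANTCA. Tead3 has 3 windows and Wwtr1 has 2, which gives these genes more letters to match in. Of 34 wider Hippo genes with sequence, 10 held the TEAD letters and 1, F3, held TGANTCA. A match says that the letters are there, not that a factor binds. Regions themselves were not searched for motifs, since their sequence was not used here.

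Across the libraries the 10 genes owned 29 and 16 regions in the siChst7 libraries and 17 and 14 in the siControl libraries, in replicate order. The siChst7 replicate 1 list was the longest of the 4, with 10163 peaks against 4735 in siChst7 replicate 2 and 6469 and 5827 in siControl. As a share of the regions of each library, the 10 genes took 0.288% and 0.347% in siChst7 and 0.269% and 0.247% in siControl. Both siChst7 shares were above both siControl shares, and this order was lost in 4 of the 7 alternatives on peaks and assignment. In these the siChst7 replicate 1 share lay below a siControl share, for example 0.285% against 0.294% in siControl replicate 1 when peaks had to cover 50% of each other. The mean number was 22.5 ± 9.19 in siChst7 and 15.5 ± 2.12 in siControl (SD, n = 2 each), a difference of mean log2 numbers, siChst7 minus siControl, of 0.48 (two-sided exact permutation p = 0.667). The mean share was 0.318% ± 0.0414 in siChst7 and 0.258% ± 0.0149 in siControl (SD, n = 2 each), a difference of 0.06 percentage points (two-sided exact permutation p = 0.33, the smallest that 4 libraries can give). After Benjamini-Hochberg adjustment over these 2 comparisons both exact permutation p-values were 0.667. With lists of equal length the numbers were 13 and 16 in siChst7 and 11 and 11 in siControl. Without siChst7 replicate 1 the log2 difference in number was 0.01 and without siChst7 replicate 2 it was 0.911. The difference in share was 0.08 percentage points without siChst7 replicate 1 and 0.03 without siChst7 replicate 2.

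**Figure D1:**
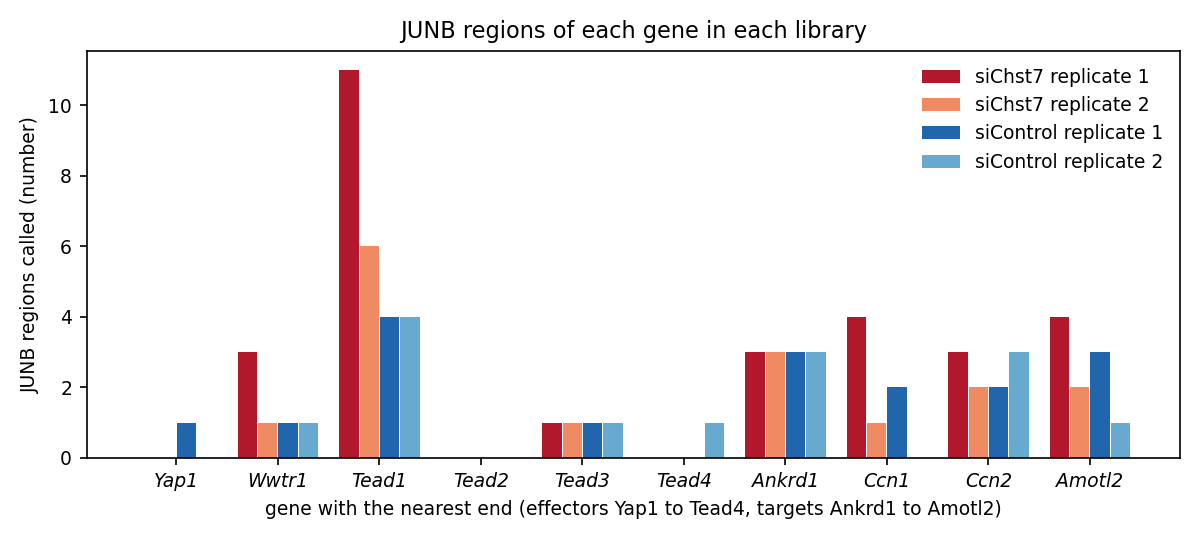
Number of JUNB regions (y axis) whose nearest gene end belongs to each gene (x axis), with 1 bar for each of the 2 siChst7 and 2 siControl libraries. Tead1 has 11 and 6 regions in the siChst7 libraries and 4 in each siControl library, Ankrd1 has 3 in every library, and Tead2 has none.

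Of the 33 regions, 10 (30.3%) were called in all 4 libraries, against 22.0% of all regions. They belonged to 5 of the 10 genes: Tead1 with 4, Ankrd1 with 3, and Tead3, Ccn2 and Amotl2 with 1 each. Of all protein-coding genes, 8.32% had such a region and 0.584% had 3 or more, as Tead1 and Ankrd1 did. In both siChst7 libraries 6 of the 10 genes had a region, against 11.3% of all genes, and in both siControl libraries 5 had one, against 11.0%. The gene that made the difference was Ccn1. Another 2 regions were called in 3 libraries (13.3% of all regions), 9 in 2 libraries (17.9%) and 12 in 1 library (46.7%). Of those 12, 9 came from siChst7 replicate 1. Regions called in that library alone were thus 27.3% of the 33, against 29.2% of all regions. Folds of these 9 ran from 4.04 to 6.35, below the median of 6.61 over that whole list. Without siControl replicate 2, so that the remaining siControl library decides, the siControl count of genes was 8. When peaks had to cover 50% of each other, 6 of the 10 regions were in all 4 lists, and 4 were when a region had to lie within 20 kb of the gene. Under the 50% rule those lost were the Tead3 region, the Ccn2 region and the Tead1 regions that start at 112700133 and 112720050.

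The 10 regions in all 4 lists were set beside all regions called in all 4 lists. Their fold enrichment, the authors' ratio of signal at the summit over local background, had medians of 9.70 and 6.89 in the siChst7 lists and 8.55 and 6.95 in the siControl lists. Over all 2785 regions called in all 4 lists the medians were 10.6 and 7.68 in siChst7 and 8.90 and 8.08 in siControl. Their widths ran from 563 to 1224 bp with a median of 804 bp, against a median of 925 bp over all such regions. Inside their gene lay 5 of 10, against 49.6% of the 2411 such regions that have a gene end within 100 kb. Within 1 kb of a gene end lay 1 of 10, against 9.17% of these 2411. The summits of the 4 lists were spread over 53 to 526 bp within these regions. Each fold is on the scale of its own list, so folds are set side by side and not tested between groups. Both siChst7 folds were above both siControl folds in 4 of the 10 regions, against 21.9% of all regions in 4 lists, and below them in 1, against 12.6%.

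**Figure D2:**
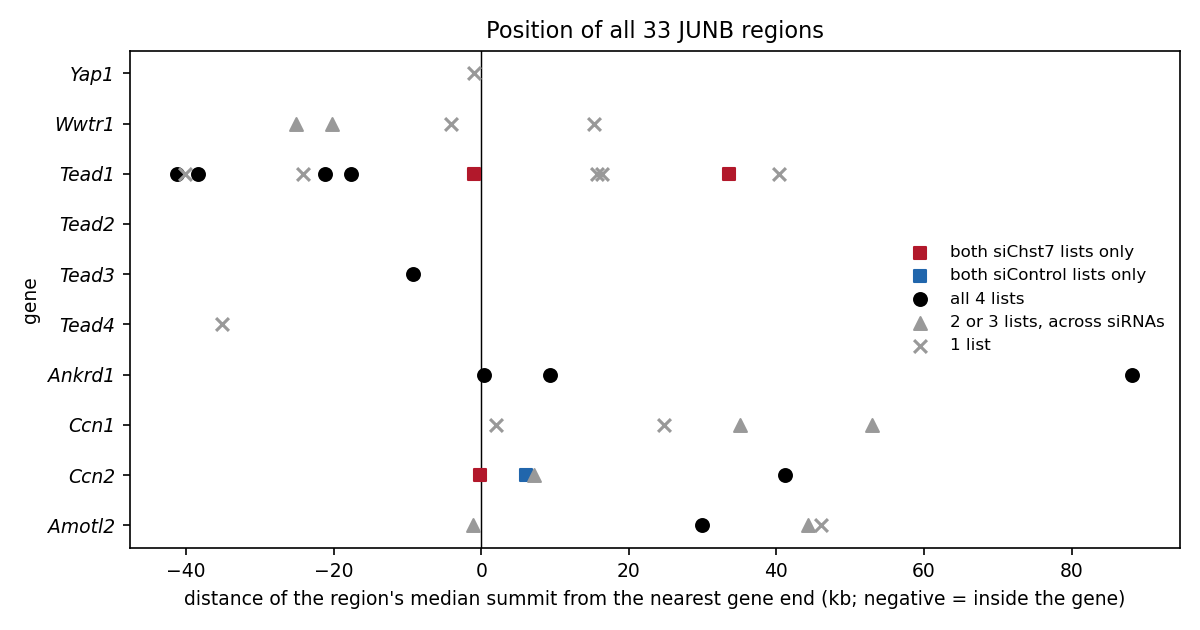
Position of all 33 regions, given as the distance of the median summit from the nearest gene end in kb (x axis, negative values inside the gene), for each gene (y axis); symbols show in which lists a region was called. The regions in all 4 lists lie inside Tead1 and Tead3 and outside Ankrd1, Ccn2 and Amotl2.

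The coactivator genes Yap1 and Wwtr1 had no region that 2 libraries of 1 group shared. Yap1 (chromosome 9, 7931999 to 8004638) owned 1 region, 0.922 kb inside the gene from the end where its promoter lies (8003526 to 8003775). It had a fold of 7.12 in siControl replicate 1 and was in none of the other 3 lists. Wwtr1 (chromosome 3, 57455644 to 57575910) owned 4 regions, 3 of them inside the gene. The region at 57550518 to 57550997 had folds of 7.12 in siChst7 replicate 1 and 4.93 in siControl replicate 1. The region at 57555553 to 57555775 had 7.50 in siChst7 replicate 1 and 4.97 in siControl replicate 2. These pair 1 library of each group, so neither separates siChst7 from siControl. The other 2 Wwtr1 regions were each called in 1 siChst7 library, with folds of 5.05 and 6.10.

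Tead1, which encodes a TEAD protein expressed in many tissues, the heart among them, owned 11 of the 33 regions. The gene spans 227 kb (chromosome 7, 112679356 to 112906784), and 267 kb of genome are nearer to its ends than to those of other genes and within 100 kb. Its 4 regions in all 4 lists come to 15.0 per Mb of this stretch, against 1.42 per Mb over all genes and 6.99 per Mb for the other 9 genes. All 4 lay inside the gene, 17.7 to 41.2 kb from its low-coordinate end, with summits spread over 23.6 kb. They are counted with peaks joined at 1 bp of overlap, and those that start at 112700133 and 112720050 were not in all 4 lists under 50% reciprocal overlap.

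The Tead1 region at 112720050 to 112721110 had the highest fold of the gene in every list but that of siControl replicate 1, with 13.8 and 10.1 in siChst7 and 8.87 and 9.94 in siControl. Both siChst7 folds were above both siControl folds, the nearest by a small margin. The region at 112700133 to 112701020 had 6.53 and 5.67 in siChst7 and 9.49 and 8.70 in siControl. Here both siChst7 folds were below both siControl folds, so that these 2 Tead1 regions differ in their order. The folds put in order were read at summits up to 501 bp apart in the first region and 500 bp in the second. With 50% reciprocal overlap no part of either region was in more than 3 lists, so the folds may belong to different peaks. The region at 112696861 to 112697542 had 9.81 and 5.33 in siChst7 and 8.26 and 6.77 in siControl, and that at 112717684 to 112718246 had 5.77 and 5.65 in siChst7 and 4.96 and 5.98 in siControl. In these 2 regions the groups overlap.

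Tead1 also held 2 of the 3 siChst7-only regions, called in both siChst7 lists and in neither siControl list. One lay outside the gene, 33.6 kb from its low-coordinate end (112645497 to 112646188), with folds of 9.81 and 7.57. It stood at 22.8% and 41.0% of the way down the siChst7 lists when peaks were ordered by q. The other lay 0.928 kb inside that end (112680099 to 112680510), with folds of 4.04 and 5.05. It stood at 99.6% and 90.2%, among the weakest peaks of both lists. The remaining 5 Tead1 regions were called in siChst7 replicate 1 alone, with folds of 4.04 to 6.35.

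The other Tead genes differed from Tead1. Tead3 (chromosome 17, 28331671 to 28350805) owned 1 region, 9.31 kb inside the gene (28340375 to 28341332). Its folds were 17.0 and 7.57 in siChst7 and 14.8 and 11.2 in siControl. The siChst7 values lie on either side of both siControl values. With 50% reciprocal overlap no part of this region was in more than 2 lists. Summit windows of 100 bp either way kept it in all 4. The Tead3 region had the highest fold among the regions of the 10 genes in every list but that of siChst7 replicate 2, and stood at 4.97%, 39.4%, 6.86% and 13.5% of the way down the lists in the order siChst7 replicate 1 and 2 and siControl replicate 1 and 2. Its summit is 9.95 kb from the nearest end of Rpl10a, a ribosomal protein gene, so that the assignment to Tead3 is by a small margin. Tead4 (chromosome 6, 128227143 to 128300813) owned 1 region with a fold of 4.42, in siControl replicate 2 alone. Tead2 (chromosome 7, 45215792 to 45233468) owned no region in any list; only 19.6 kb of genome are nearest to it.

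**Figure D3:**
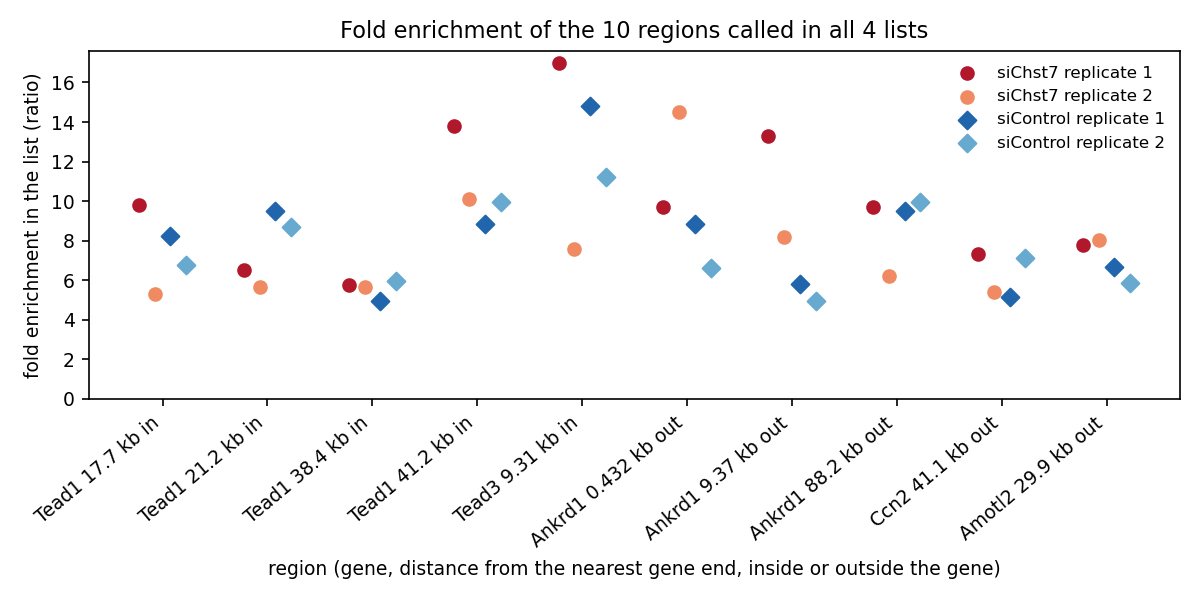
Fold enrichment in its own list (y axis, ratio) of the 10 regions called in all 4 lists (x axis, with gene, distance from the nearest gene end and whether the region is inside or outside the gene); circles are the 2 siChst7 libraries and diamonds the 2 siControl libraries. Values run from 4.96 for a Tead1 region to 17.0 for the Tead3 region, and the order of the groups changes from region to region.

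Ankrd1 encodes a cardiac ankyrin repeat protein that is induced by stretch and is a standard readout of YAP activity. Of the 10 regions in all 4 lists, the nearest to a gene end was at Ankrd1. Ankrd1 lies at chromosome 19, 36111965 to 36119844, on the minus strand, and its 3 regions were all upstream of the start and called in every library. The promoter region (36119800 to 36121023) covered all 250 bases printed above. Its folds were 9.70 and 14.5 in siChst7 and 8.84 and 6.61 in siControl. Its summits lay 271 and 479 bp upstream of the start in siChst7 and 391 and 473 bp in siControl. The GGAATG sites begin 210 and 123 bases before the start and lie within the region. Their low-coordinate ends, which are nearer the gene, lie 227 and 314 bp from the median summit of the region.

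The other Ankrd1 regions lay 9.37 kb and 88.2 kb upstream. The nearer one (36129033 to 36129753) had folds of 13.3 and 8.20 in siChst7 and 5.80 and 4.97 in siControl. As at the promoter, both siChst7 values were above both siControl values. The farther one (36207896 to 36208583) had 9.70 and 6.22 in siChst7 and 9.49 and 9.94 in siControl, where the groups overlap. Its next nearest gene is Rpp30, 103 kb away.

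Ccn1 and Ccn2 encode matricellular proteins that bind integrins and growth factors, and both are direct YAP and TEAD targets in many cells. Ccn1 (chromosome 3, 145646971 to 145649985, minus strand) owned 4 regions, all upstream and none in all 4 lists. The region at 145684625 to 145685436, 35.1 kb from the gene, had folds of 6.35 and 6.31 in siChst7 and 6.53 in siControl replicate 1, and was missing from siControl replicate 2. Where it was called, the 3 values nearly coincide, each on the scale of its own list. Equal folds also recur at unrelated regions: the 29 regions in siChst7 replicate 1 took 20 distinct values at 3 digits. A region 52.9 kb away was called in replicate 1 of both groups, with folds of 6.35 in siChst7 and 4.93 in siControl. Regions 2.03 and 24.7 kb away were called in siChst7 replicate 1 alone, with folds of 5.55 and 5.77.

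Ccn2 (chromosome 10, 24595442 to 24598683) owned 4 regions, each held by a different set of lists. A region 41.1 kb from the gene (24553982 to 24554600) was in all 4 lists, with folds of 7.35 and 5.42 in siChst7 and 5.15 and 7.13 in siControl. The groups overlap in these values. With 50% reciprocal overlap no part of this region was in more than 2 lists, and with summit windows in more than 3. A region over the low-coordinate end of the gene (24595244 to 24595762) was siChst7-only, with folds of 3.75 and 4.94. It stood at 97.0% and 85.6% of the way down the siChst7 lists. A region 6.05 kb outside that end (24589045 to 24589751) was siControl-only, with folds of 5.42 in both lists. The region 7.12 kb beyond the other end (24605561 to 24606267) had 5.32 in siChst7 replicate 1 and 5.37 in siControl replicate 2. The strand of Ccn2 was not used here, so these ends are not called start or stop.

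Amotl2 encodes a member of the angiomotin family, which binds YAP and holds it in the cytoplasm, and is itself a YAP target. It lies at chromosome 9, 102717091 to 102733418, on the plus strand. The region at 102717792 to 102718892 lay over the RefSeq start used for the printed promoter, which is inside the gene as given here. It had folds of 7.50 and 4.93 in siChst7 and 8.13 in siControl replicate 1, and was missing from siControl replicate 2. Its median summit lay 411 bp downstream of the RefSeq start used for the printed promoter, and the joined region covered the last 12 of the 250 bases. The summits of the 3 lists were spread over 754 bp, and the cover of these bases was not taken list by list. The CATTCC site lay outside it. A region 29.9 kb beyond the gene (102762700 to 102763767) was in all 4 lists, with 7.76 and 8.03 in siChst7 and 6.66 and 5.87 in siControl. Both siChst7 values were above both siControl values, read at summits up to 526 bp apart. A region 44.3 kb beyond the gene was called in replicate 1 of both groups, with folds of 6.12 in siChst7 and 4.58 in siControl. Another, 46.1 kb beyond it, had 5.97 in siChst7 replicate 1 alone.

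Group-only regions were few in number, with shares above those of all regions. The 10 genes had 3 siChst7-only regions (9.09% of 33, against 3.88% of all regions) and 1 siControl-only region (3.03%, against 1.60%). By gene, Tead1 and Ccn2 had a siChst7-only region, as did 1.81% of all genes, and Ccn2 had a siControl-only region, as did 0.795%. Among pairs of libraries from different groups, siChst7 replicate 1 with siControl replicate 1 gave 3 regions (6.41% of all regions). With siControl replicate 2 it gave 2 (5.06%). Pairs of siChst7 replicate 2 with siControl replicate 1 and 2 gave 0 each, but held only 0.553% and 0.419% of all regions. The siChst7-only count equalled that of a mixed pair that holds the longest list. Without siChst7 replicate 2 the siChst7-only count was 12, but then siChst7 replicate 1, the longest list, alone decides. With all 4 libraries, regions in siChst7 replicate 1 alone were 27.3% of the 33 and 29.2% of all regions. Without siControl replicate 1 the siChst7-only count was 5. The siControl-only count was 2 when either siControl library was left out, so that the remaining one decides. With peaks held to q values up to 0.001, or to folds from 5 upwards, or with lists of equal length, the region 33.6 kb from Tead1 was the 1 siChst7-only region left of the 3. At equal list length the siControl-only region near Ccn2 was in siControl replicate 2 alone.

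The rest of the Hippo pathway was described with 24 upstream genes and 20 further YAP and TAZ target genes. Of the upstream genes, 9 had a region in both siChst7 libraries and 7 in both siControl libraries, against 11.3% and 11.0% of all genes. Regions in all 4 lists belonged to 6 of 24, against 8.32% of all genes: Wwc1, Frmd6, Taok3, Amotl1, Vgll4 and Ptpn14. The core kinase genes Stk3, Stk4, Lats1 and Lats2, the Mob1 genes and Nf2, which encodes the upstream activator merlin, had no region in all 4 lists. Stk3 had 1 region, in siChst7 replicate 1 alone, and the other genes of this group had no region in any list, as was so for most genes, since 25.1% of all genes had one. Sav1, which encodes the scaffold of the kinase core, had 1 region, in siChst7 replicate 1 and in both siControl lists, and was the upstream gene counted in siControl and not in siChst7. Wwc1 encodes KIBRA, which activates the LATS kinases. Its region 0.382 kb inside the gene (chromosome 11, 35837504 to 35839520) had folds of 28.3 and 25.2 in siChst7 and 25.1 and 23.0 in siControl. These exceed the highest fold of the 10 genes in each list, and all 4 values lie close together. Amotl1 encodes the angiomotin relative of Amotl2. A region inside it (chromosome 9, 14596276 to 14597034) had 9.73 and 9.88 in siChst7 and 12.0 and 9.84 in siControl.

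Of the 20 further target genes, 9 had a region in both siChst7 libraries and 8 in both siControl libraries, against 11.3% and 11.0% of all genes. Regions in all 4 lists belonged to 8 (8.32% of all genes), Axl, Crim1, Gadd45a, Ccdc80, Tgfb2, Myof, Asap1 and Cdc42ep3, and 2 of these had 3 or more (0.584% of all genes): Myof and Asap1 with 3 each. F3 was the target gene counted in siChst7 and not in siControl. Of the 44 wider genes, 7 had a siChst7-only region, against 1.81% of all genes. A siControl-only region belonged to 1 of the 44, against 0.795% of all genes. Ccdc80 encodes a matrix protein. A region 3.07 kb inside it (chromosome 16, 45124365 to 45125275) had folds of 23.0 and 16.8 in siChst7 and 17.8 and 10.5 in siControl, with overlapping groups. Axl encodes a receptor tyrosine kinase. Its region inside the gene (chromosome 7, 25783556 to 25784514) had 15.0 and 13.2 in siChst7 and 9.86 and 5.72 in siControl, so that both siChst7 values were above both siControl values. Vgll4, an upstream gene whose product competes with YAP for TEAD proteins, went the other way, with 6.35 and 4.94 in siChst7 and 10.1 and 7.46 in siControl. Of the 21 regions of the wider genes in all 4 lists, 6 had both siChst7 folds above both siControl folds (21.9% of all such regions), 1 had them below (12.6%) and in 14 the groups overlapped. Over the F3 promoter shown above, a region was called in siChst7 replicate 1 alone with a fold of 5.19 (chromosome 3, 121723020 to 121723413), and its summit lay 70 and 81 bp from the starts of the AP-1 matches. Edn1, Birc5, Fjx1, Foxf2, Arhgef17 and Nuak2 owned no region in any list.

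**Figure D4:**
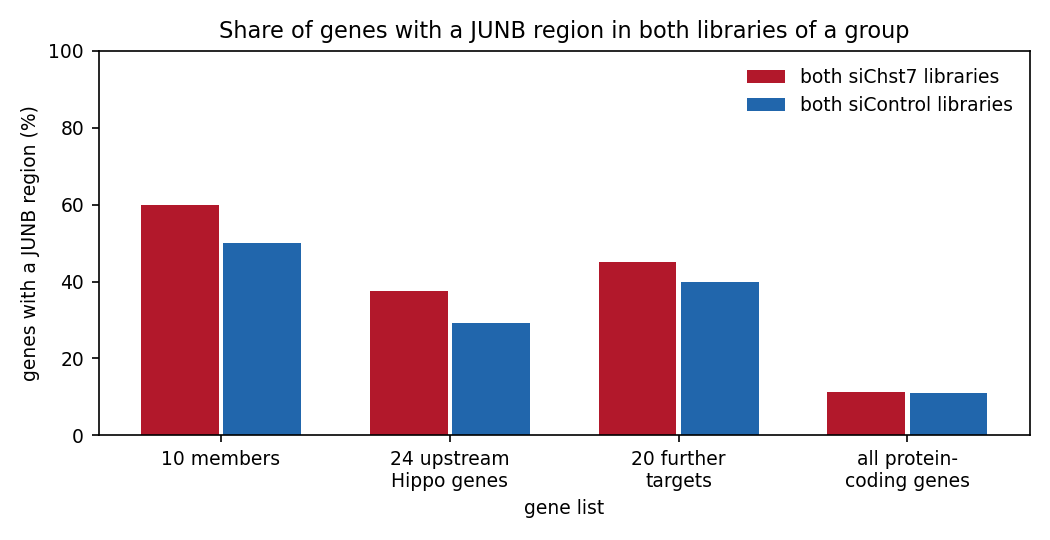
Percentage of genes (y axis) with a JUNB region in both siChst7 libraries or in both siControl libraries, for the 10 genes, the 24 upstream Hippo genes, the 20 further target genes and all protein-coding genes (x axis). The counts are 6, 9 and 9 genes in siChst7 and 5, 7 and 8 genes in siControl, beside 11.3% and 11.0% of all genes.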

How the data were processed

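JUNB CUT&RUN peak lists of 4 libraries were used, 2 siChst7 and 2 siControl. The other 3 of the 7 samples, IgG libraries, were not analysed here. Bowtie2, MACS3 and build mm10 are named, without settings, per the submitters' processing notes. The sources used here do not give the control used for peak calling. Lists were matched to libraries by the peak names in the deposited files. Each deposited peak has a fold enrichment, a ratio from the authors' peak caller, and a q-value as −log10, and the authors' lists end near a q of 0.01. Values describe peaks within a list. A read number of 30 M is given per the labels, but depth per library is unknown here, and a region absent from a list may carry signal under its threshold.

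Peaks overlapping by at least 1 bp were joined. The median summit went to the nearest end of 21900 protein-coding RefSeq genes (GRCm38.p6) within 100 kb; exons and introns were not used. Coordinates are 1-based. The genes, lists and rules were chosen with earlier results of these data known: all 10 genes are named, with every region in all 4 lists or group-only, and wider list genes with a region in all 4 lists. The core Hippo genes and F3, and the wider genes without regions, were named after their values were seen. Library counts and shares were compared by exact permutation. Joining, classes and assignment were tested on simulated peaks. Motifs were searched in the 250 bases before RefSeq starts. Alternatives were windows of 100 bp either way from summits, 50% reciprocal overlap, q values up to 0.001, folds from 5 upwards, lists shortened to equal length, a limit of 20 kb to the gene, gene bodies extended by 5 kb, leaving out each library, and a replicate block. Software was Python 3.11.15, NumPy 2.4.6, pandas 2.3.3 and Matplotlib 3.10.9.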

Additional observations from a re-analysis of the deposited data

How the results depend on the processing

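The siChst7 minus siControl differences in log2 number and in share kept their sign in every alternative. They ran from 0.011 to 0.911 and from 0.024 to 0.094 percentage points. With 4 libraries no exact permutation p can be below 0.33, so these p-values cannot show a difference. None was computed with a library left out. With a replicate block the differences were 0.482 and 0.060 (exact sign-flip p = 0.5, the smallest possible); same-numbered deviations correlated at 0.06 over 2785 regions, and the labels give the numbers no shared batch. Under 50% reciprocal overlap 6 of the 10 regions stayed in all 4 lists, 1 siChst7-only and 0 siControl-only regions remained, and 3 genes had a region in both siChst7 libraries and 3 in both siControl libraries. Assignment within 20 kb left 4 regions in all 4 lists. Gene bodies with 5 kb gave 6, with 0 siControl-only regions and 3 genes in siControl. The siChst7-only count was 1 at a q of at most 0.001, at a fold of at least 5 and at equal list length, and the siControl-only count was 0 at equal list length and with summit windows. Leaving out a library gave 3 to 12 siChst7-only regions, 1 to 2 siControl-only regions and 5 to 8 genes with a region in siControl. The 12 came without siChst7 replicate 2, where the longest list alone decides. Most of these alternatives keep fewer peaks or require closer overlap. The motif search at region summits was not run. Both siChst7 shares were above both siControl shares with folds from 5 upwards, equal list length and the 20 kb limit, and not with 50% reciprocal overlap, summit windows, q values up to 0.001 (siChst7 replicate 1 0.273%, siControl replicate 1 0.286%) or gene bodies (siChst7 replicate 1 0.149%, siControl 0.158% and 0.159%; exact permutation p = 1.00). Numbers per library also moved: within 20 kb they were 12 and 8 in siChst7 and 7 and 6 in siControl, with gene bodies 15 and 10 in siChst7 and 10 and 9 in siControl, and at equal length 13 in siChst7 replicate 1 and 11 in siControl replicate 1. Counts of wider Hippo genes with a region in both libraries of a group were within 1.5 times their values. Read depth limits the weakest peaks, and none of the lists says how far below its threshold a missing region lies.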
